A study of Gallus gallus with 30 samples.

Results

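Electroporation is the usual way to bring a plasmid into the otic placode of the chick embryo, and transcripts that differ between the electroporated and the untouched ear whatever the plasmid carries are of interest as a background to such experiments. The 100 transcripts described here were selected because they were more abundant in the electroporated right otocyst than in the untransfected left otocyst of the same embryo in every electroporated set, with the Notch plasmid and with the control plasmid alike. For each embryo, r was the log2 ratio of the right to the left TPM (transcripts scaled to a fixed total per library), each with 1 TPM added. Of 28756 transcripts listed, 11540 had a mean of at least 5 TPM over the 18 in ovo libraries. Of these, 315 (2.73%) had a mean r above 0 in each of the 3 electroporated sets and an r above 0 in at least 8 of the 9 embryos, and the 100 with the largest mean r were taken. The same rule with all signs turned was met by 1096 transcripts (9.5%). The transcripts were thus selected on the r values of the 9 in ovo embryos, which are given below as a description, with no test.

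The otocyst is the vesicle that the otic placode forms on its way to becoming the inner ear. In it, Notch receptors are cut by γ-secretase after they bind a ligand on a neighbouring cell, and the released intracellular domain acts with RBPJ on targets of the HES and HEY families. Electroporation itself drives charged DNA through pores opened by electric pulses, and both the pulses and the plasmid are known to be able to stress cells. Loose mesenchyme lies next to the otic epithelium and expresses matrix genes such as DCN and LUM.

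All embryos were White Leghorn chicken embryos. In ovo, the right otic placode of E2 embryos received a pCAB plasmid. It carried NICD1, the intracellular domain of chicken NOTCH1, together with the fluorescent protein mRFP1 in the NICD1 sets, collected after 6 h (E2.5) and after 24 h (E3), and mRFP1 alone in the mRFP1 set, collected after 24 h (E3). Transfection in ovo is mosaic, and strongly fluorescent otocysts were chosen for sequencing. In culture, the right otocyst of E2.5 embryos was kept with 10 µM LY411575, a γ-secretase inhibitor, and the left otocyst with DMSO, for 6 h or for 24 h. The last digits of the inhibitor's name differ in 4 of its 6 labels, and all were taken as LY411575. Each of the 5 sets had 3 embryos and 6 libraries, 1 per otocyst, and the treated otocyst was the right one in all 15 embryos. In ovo, the effects of the plasmid, of the pulses and of the side therefore cannot be told apart. Mesenchyme was trimmed from every otocyst before RNA was taken.

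Depth ran between 8749489 and 18224622 estimated counts over the 30 libraries, with 19055 to 22073 transcripts detected per library. In 7 of the 9 in ovo embryos fewer transcripts were detected on the right than on the left. The largest such gap was in embryo 24, with 20344 on the right and 21620 on the left. The right library was also the shallower one in every in ovo embryo but embryo 19. Its counts were 11492595 against 15700058 in embryo 24, and 12845942 against 11795499 in embryo 19. Depth and side thus mostly went together, and their parts in the numbers detected were not tested. In embryo 19 the deeper right library detected fewer transcripts, 20979 against 21115. In embryos 13 and 22 the shallower right library detected more, 21447 against 21360 and 21492 against 21333. HES5, a direct Notch target, had a mean r of 0.87 in the NICD1 6 h set and 1.44 in the NICD1 24 h set. Its mean r was -0.53 in the mRFP1 set, and -6.05 and -3.09 after 6 h and 24 h of LY411575. In the NICD1 6 h embryos 12, 13 and 15 its r was 1.99, 0.32 and 0.29. In the NICD1 24 h embryos 19, 21 and 22 it was 1.27, 2.31 and 0.75. HES5 did not stand for all 11 Notch pathway transcripts listed. In the NICD1 6 h set 2 of them had a mean r above 0, and their median was -0.20. In the NICD1 24 h set 8 did, with a median of 0.29, and in the mRFP1 set 2 did, with -0.57. After 6 h of LY411575 4 of the 11 had a mean r above 0, with a median of -0.13. After 24 h of LY411575 0 did, with a median of -0.91.

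The 100 transcripts had small ratios. Their mean r over the 9 embryos ran between 0.19 and 0.98 (1.97-fold), with a median of 0.24. The mean r passed 0.5 in 19 transcripts. At the edge of the selection the 98th, 99th and 100th transcripts had mean r values of 0.194, 0.194 and 0.193, and the next 3 had 0.190, 0.190 and 0.189, so that nothing separated the last transcripts taken from the first left out. An r above 0 was found in all 9 embryos for 25 transcripts and in 8 for the other 75. The mean r was larger than the SD over the 9 embryos in 60 of the 100 transcripts and smaller in the other 40. The mean was largest in the NICD1 6 h set for 31 transcripts, in the NICD1 24 h set for 29 and in the mRFP1 set for 40.

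**Figure D1:**
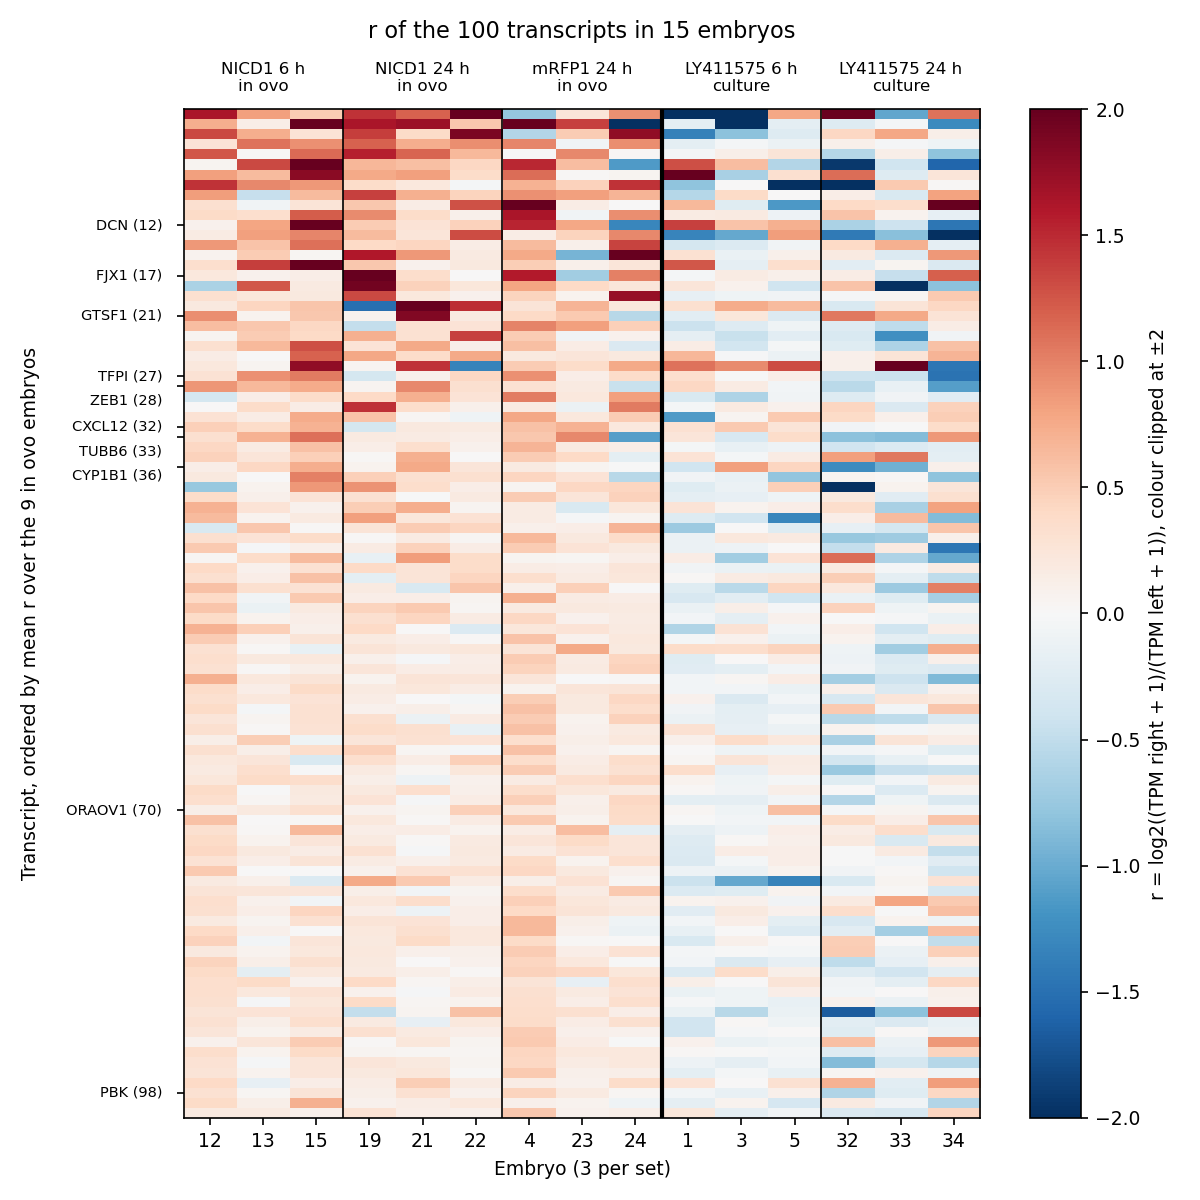
Each row is 1 of the 100 transcripts, ordered by mean r, and each column is 1 embryo. Colour gives r, the log2 ratio of right over left TPM with 1 TPM added, with red for higher on the right. The 9 in ovo columns, on which the rows were selected, are mostly red, and the 6 culture columns hold both colours, with 36 and 42 transcripts of positive mean r in the LY411575 6 h and 24 h sets.

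The ears differed in how strongly they showed these ratios. In the NICD1 6 h embryos the median r of the 100 transcripts was 0.32, 0.14 and 0.30 in embryos 12, 13 and 15. In the NICD1 24 h embryos it was 0.24, 0.24 and 0.16 in embryos 19, 21 and 22. In the mRFP1 embryos it was 0.44, 0.17 and 0.21 in embryos 4, 23 and 24. The largest and the third smallest of these medians thus came from the mRFP1 set, whose plasmid carried no NICD1. Over all 11540 transcripts the median r lay between -0.27 (embryo 24) and 0.07 (embryo 13), and it was below 0 in 7 of the 9 embryos, so that a TPM ratio of 0 was above the middle of most right ears. Relative to that median the 100 transcripts stood highest in embryo 4 and lowest in embryo 13.

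TPM sum to a fixed total, so the scaling bears on every ratio here. With CPM (counts scaled to a fixed total) on TMM library sizes, a scaling that trims the extreme transcripts of each library, the median r of the same 11540 transcripts lay between -0.03 and 0.08 in the 9 embryos, with embryo 24 at 0.08. Under that scaling 88 of the 100 met the rule, and 54 were among the 100 with the largest mean r. The number meeting the rule was then 730, against 752 with the signs turned. Under TPM the split was 315 to 1096, which is 22.3% raised, and under TMM-scaled CPM it was 49.3%.

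To see how far the selection carries over to an ear it did not use, the rule was applied 9 times, each time without 1 embryo (r above 0 in at least 7 of the other 8), and the resulting 100 transcripts were read in the embryo left out. In the 3 NICD1 6 h embryos 65, 63 and 70 of the 100 had r above 0. In the NICD1 24 h embryos 62, 58 and 60 did. In the mRFP1 embryos 77, 49 and 39 did, in embryos 4, 23 and 24. These counts stood above the share of all transcripts with r above 0 in 9 of 9 embryos, narrowly so in embryos 13 and 23, where that share was 61.9% and 46.2%. The 9 runs share most of the embryos they chose on, so the 9 counts are not independent of each other. All transcripts are also no background matched for length or level, and r followed length in some embryos. The part of length in these counts was not tested. The median r of the transcripts so picked was 0.24 in embryo 4, and -0.01 and -0.18 in embryos 23 and 24, where the medians over all transcripts were -0.02 and -0.28. In embryo 13 the median was 0.06, below the 0.07 of all transcripts. The ratios were thus smaller in ears that had no part in the choice, and in embryos 13 and 23 they differed little from those of all transcripts.

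**Figure D2:**
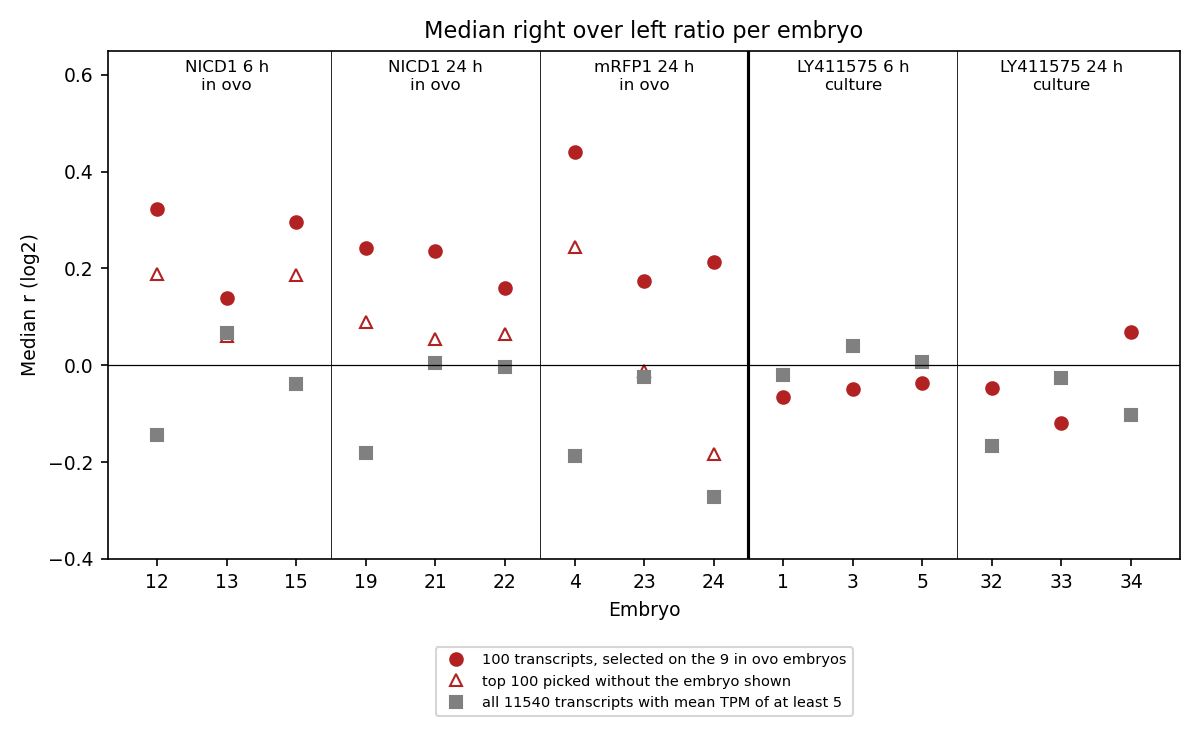
Median r per embryo, in log2 units, for the 100 transcripts (filled circles), for the 100 transcripts picked without the embryo shown (open triangles, in ovo only) and for all 11540 transcripts with a mean of at least 5 TPM (squares). The circles lie above 0 in all 9 in ovo embryos, which the selection makes likely, and below 0 in 5 of the 6 cultured embryos.

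Of the 100 transcripts, 10 could be given a gene symbol through the study's own list of names, and 90 appear under their Ensembl transcript identifier alone. The transcript with the largest mean r was ENSGALT00000089294.2, of 2423 bases, for which no gene name is given here. Its TPM in the NICD1 6 h otocysts was 2.69, 15.2 and 1.16, against 0.183, 8.22 and 0.515 on the left. In the NICD1 24 h otocysts it was 18.8, 25.8 and 7.50, against 6.25, 10.9 and 0.170. In the mRFP1 otocysts it was 8.28, 13.3 and 24.9, against 14.9, 11.2 and 12.8. It was higher on the right in 8 of 9 embryos, but its level varied so much between left ears that right and left values overlapped in each set. The second, ENSGALT00000090490.1, is a transcript of only 246 bases with a mean of 5.63 TPM, and its r ran between -2.48 and 2.63. The top of the list was therefore held by low and scattered transcripts: the 19 with a mean r above 0.5 had a median level of 10.1 TPM and a median SD of r of 0.68.

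The named transcript with the largest mean r was DCN. It encodes decorin, a small proteoglycan that binds collagen in the extracellular matrix. DCN measured 10.6, 14.3 and 46.1 TPM in the NICD1 6 h otocysts, against 9.95, 7.91 and 6.61 TPM in the untransfected ones. After 24 h of NICD1 it measured 23.3, 42.6 and 40.7 TPM, against 16.1, 35.1 and 29.3 TPM. In the mRFP1 otocysts it measured 74.9, 44.7 and 19.3 TPM, against 25.4, 25.8 and 49.2 TPM. Its mean r was 0.64 ± 1.06 (SD, n = 9), with embryo 15 (2.63) and embryo 4 (1.53) highest, and embryo 24 at -1.30, and it was 0.39 without embryo 15. The groups did not overlap in the NICD1 6 h set and overlapped in both 24 h sets.

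ZEB1, a repressor of epithelial genes that marks mesenchymal cells, was low in the in ovo otocysts. It measured 6.03, 5.80 and 8.75 TPM in the NICD1 6 h otocysts, against 2.80, 3.35 and 4.82 TPM on the left, without overlap. After 24 h of NICD1 it measured 5.65, 14.0 and 9.02 TPM, against 5.42, 6.71 and 7.02 TPM, and in the mRFP1 set 7.48, 5.88 and 2.66 TPM, against 5.84, 5.04 and 3.98 TPM. Its mean r was 0.41 ± 0.45 (SD, n = 9), and 0.76 in the NICD1 6 h set against 0.02 in the mRFP1 set.

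CXCL12 is the chemokine ligand of CXCR4 and guides migrating cells. It measured 56.9, 65.2 and 106 TPM in the NICD1 6 h otocysts, against 40.8, 50.5 and 65.7 TPM. After 24 h of NICD1 it measured 44.2, 66.2 and 81.2 TPM, against 56.6, 57.9 and 71.5 TPM, and in the mRFP1 set 112, 92.7 and 49.4 TPM, against 73.6, 57.0 and 42.6 TPM. Its mean r was 0.34 ± 0.33 (SD, n = 9), with a mean of 0.01 in the NICD1 24 h set. TFPI, an inhibitor of the tissue factor step of coagulation, had mean r values of 0.74, 0.06 and 0.47 in the NICD1 6 h, NICD1 24 h and mRFP1 sets. The right and left values of CXCL12 overlapped in every set.

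A list of 9 mesenchyme genes put these next to their neighbours. Of the 7 that passed the TPM floor, DCN and ZEB1 met the rule, ENG met it with the sign turned, and COL1A2, SNAI1, THY1 and LUM met neither. LUM, which encodes the related proteoglycan lumican, had a mean r of 0.87, -0.16 and -0.11 in the NICD1 6 h, NICD1 24 h and mRFP1 sets, and COL1A2, a chain of type I collagen, had 0.51, -0.29 and -0.59. DCN itself had 1.16, 0.42 and 0.33, so that it was positive in both 24 h sets, where LUM and COL1A2 were negative. In embryo 15, where DCN had its largest r, the r values were 2.63 for DCN, 1.68 for LUM, 0.99 for COL1A2, 0.74 for ZEB1, 0.12 for ENG, -0.06 for THY1 and -0.34 for SNAI1. In embryo 24, where DCN had its lowest, they were -1.30, -1.31, -1.95, -0.45, -0.06, 0.01 and 0.07 in the same order. Summed over the 9 genes, the list reached between 336 and 593 TPM in the NICD1 6 h otocysts, against 305 and 335 TPM in the untransfected ones, between 429 and 613 TPM in the NICD1 24 h otocysts, against 478 and 650 TPM, and between 326 and 724 TPM in the mRFP1 otocysts, against 427 and 658 TPM. No gene of the list was at 0 in an in ovo library. Its part in the ratios of DCN and ZEB1 was not tested. In bulk otocysts, more cells of a type and more RNA per cell cannot be told apart.

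Over the 9 embryos, r followed that of DCN with a Pearson correlation above 0.8 in 6 of the other 99 transcripts (6.06%), against 1.12% of all transcripts above the TPM floor. All were selected on these same r values and share their libraries, so the correlations are a description with no test. The closest was the unnamed ENSGALT00000089781.2, of 1526 bases, at 0.98, and the named one among them was TUBB6, a β-tubulin of the microtubule, at 0.87. TUBB6 measured 39.7, 45.5 and 95.3 TPM in the NICD1 6 h otocysts, against 31.6, 27.8 and 44.1 TPM. After 24 h of NICD1 it measured 35.6, 52.8 and 44.2 TPM, against 31.2, 46.9 and 40.4 TPM. In the mRFP1 set it measured 72.2, 41.3 and 23.9 TPM, against 49.1, 20.7 and 52.6 TPM. Its mean r was 0.33 ± 0.64 (SD, n = 9), and 0.51 without embryo 24, where it was lower on the right. In the 6 cultured embryos, which the selection did not use, 5 of the 99 transcripts were above 0.8, among them 1 of the 6 found in ovo. The share over all transcripts was not computed for culture. The 5 included ENSGALT00000089781.2 at 0.85, TFPI at 0.95 and ZEB1 at 0.94, the last pair at 0.54 and 0.48 in ovo, while TUBB6 was at 0.02 in culture. These 6 embryos join the 6 h and 24 h sets of LY411575. The mean r of DCN was 0.89 in the first set and -0.83 in the second, with opposite signs in every embryo. The culture correlations thus also hold the difference between the sets and cannot be read as likeness between single embryos.

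**Figure D3:**
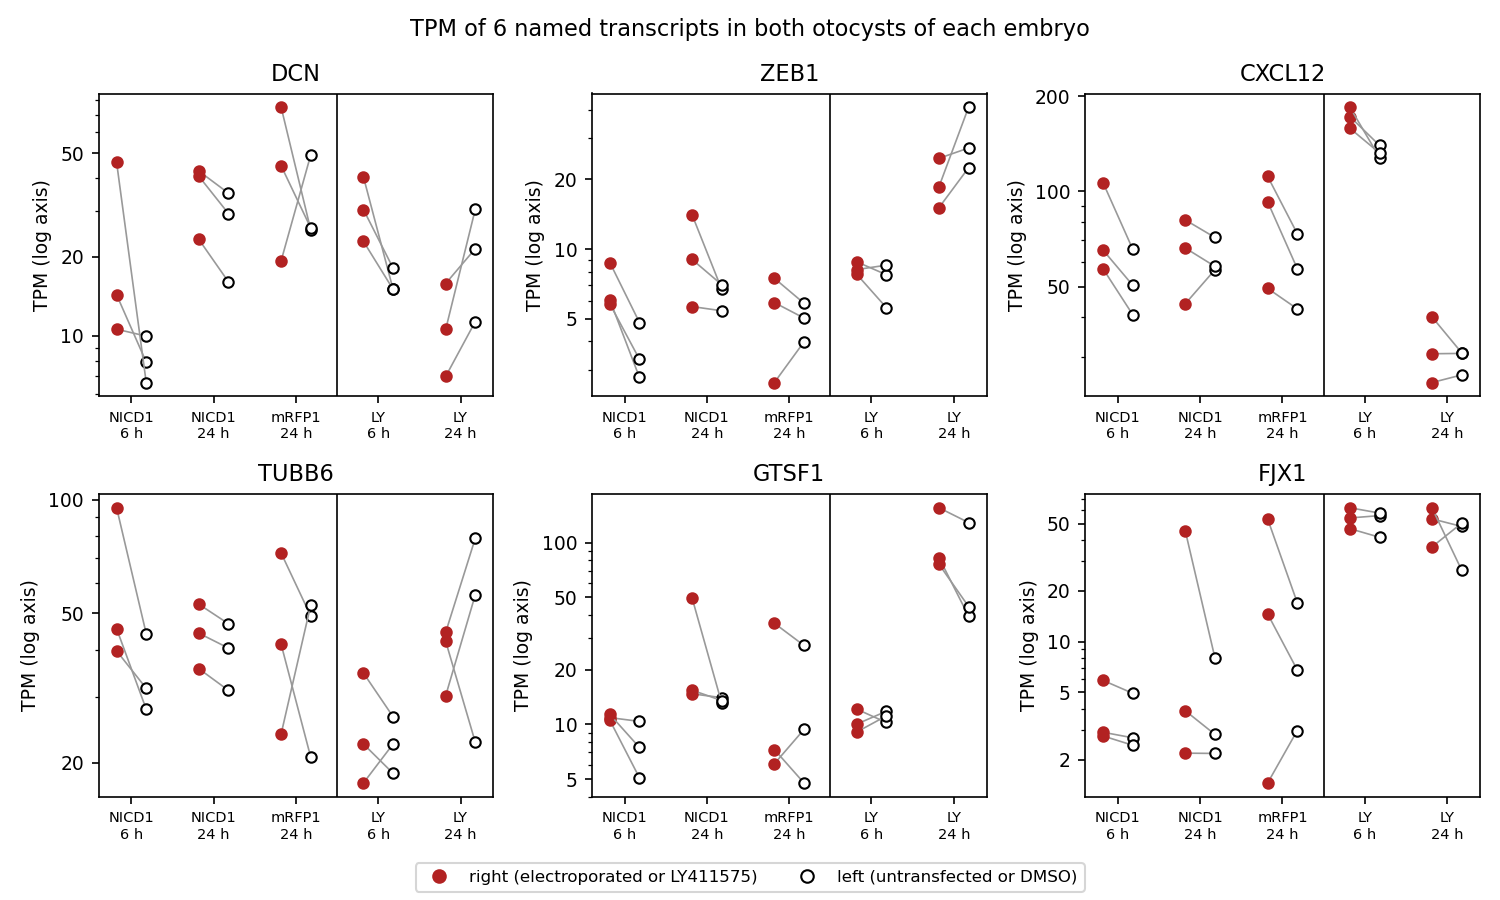
TPM on log axes for 6 named transcripts in the 5 sets. Filled points are right otocysts (electroporated in ovo, LY411575 in culture), open points are left otocysts (untransfected in ovo, DMSO in culture), and lines join the pair of 1 embryo. The in ovo lines mostly slope down to the left otocyst, with exceptions such as DCN in embryo 24 at 19.3 against 49.2 TPM, and FJX1 is lower in most in ovo than in cultured otocysts.

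FJX1, the relative of the Drosophila kinase four-jointed, which acts in planar polarity in the fly, owed its place to few ears. It measured 45.2 TPM against 7.99 TPM in embryo 19, 53.4 TPM against 17.0 TPM in embryo 4 and 14.6 TPM against 6.80 TPM in embryo 24. In the other 6 in ovo embryos it reached at most 5.89 TPM, and r lay between -0.70 and 0.36. Its mean r was 0.56 ± 0.93 (SD, n = 9), 0.34 without embryo 19, and 0.60 when the trend of r on transcript length was removed in each embryo. In culture the level of FJX1 was between 26.4 and 62.2 TPM in all 12 otocysts.

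GTSF1, known from germ cells, where it helps small RNAs silence transposons, had a mean r of 0.44 ± 0.67 (SD, n = 9). Embryo 21, with 49.5 TPM against 13.1 TPM, gave the largest ratio, and embryo 24, with 6.07 TPM against 9.37 TPM, the only negative one, and the mean r was 0.27 without embryo 21. CYP1B1, a cytochrome P450 that acts on steroids and retinoids, had a mean r of 0.29 ± 0.29, and its values on the right ran between 7.06 and 23.3 TPM, against 5.62 to 20.5 TPM on the left.

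The named transcripts further down had smaller and steadier ratios. ORAOV1, also called LTO1, whose yeast relative takes part in ribosome assembly, had a mean r of 0.22 ± 0.15 and was higher on the right in 9 of 9 embryos, at 54.3 to 76.4 TPM against 46.0 to 65.4 TPM. PBK, a kinase active in mitosis, had a mean r of 0.19 ± 0.14 and was higher on the right in 9 of 9 embryos, at 146 to 234 TPM against 107 to 199 TPM. PBK took the 98th place. Just outside stood further transcripts that met the rule with a lower mean r, among them PCNA, the sliding clamp of DNA polymerase, at 0.18, and GINS1, a subunit of the replicative helicase, at 0.17. PCNA and GINS1 did not stand for the 13 listed transcripts of DNA replication and damage. Of these, 8, 4 and 3 had a mean r above 0 in the NICD1 6 h, NICD1 24 h and mRFP1 sets. The medians were 0.05, -0.08 and -0.16.

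Of the other gene lists, few members met the rule. Over all transcripts above the floor 2.73% met it, and 9.5% met it with the sign turned. It was met by 0 of 11 Notch pathway transcripts, 0 of 16 chaperones of the endoplasmic reticulum, 0 of 15 early response and stress transcripts, 1 of 14 ribosomal protein transcripts (RPS25, mean r 0.08) and 2 of 13 transcripts of DNA replication and damage (PCNA and GINS1). Of the 14 ribosomal ones, 13, 14 and 10 had a mean r above 0 in the NICD1 6 h, NICD1 24 h and mRFP1 sets. The shares of all transcripts were 40.6%, 34.0% and 26.2%. The ribosomal medians were 0.04, 0.08 and 0.05, and by embryo they lay between -0.18 (embryo 13) and 0.28 (embryo 12). Of 10 transcripts of glycolysis and hypoxia, 0 met the rule and 7 met it with the sign turned, among them SLC2A1, the glucose transporter, with a mean r of -0.49, and PGAM1, a glycolytic enzyme, with -0.38. It was also met by 0 of 9 transcripts of sterol synthesis, 0 of 5 of innate and DNA sensing, 0 of 8 of the otic epithelium, 0 of 14 of neuroblasts and neurons and 0 of 2 of the surface ectoderm. Apart from DCN and ZEB1, no transcript of any list was among the 100. A transcript could enter a list only if it had a symbol, which 702 of the 11540 above the floor had. These symbols come mostly from the study's lists of changed transcripts, in part from these same libraries. The shares over all transcripts are thus no matched background for the list counts, which are a description.

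The 100 transcripts shared features of length and level, which are not independent of the rule. The rule has a floor of 5 TPM, and r itself followed length in some embryos. Over all transcripts the Spearman correlation of r with length lay between -0.42 (embryo 24) and 0.14 (embryo 13) in ovo. The 100 were short, with a median length of 1367.5 bases against 2140 bases over all 11540 transcripts. Of the 100, 30 were shorter than 1000 bases and 4 longer than 3000 bases, against 11.6% and 25.3% of all. They were also abundant, with a median level of 48.4 TPM against 24.5 TPM, and 34 passed 100 TPM against 15.5% of all. The more abundant transcripts carried the smaller ratios: the 34 above 100 TPM had a median mean r of 0.22 and none above 0.30, and the other 66 had a median of 0.31. By length the medians were closer. The 30 under 1000 bases had a median mean r of 0.22 but reached 0.97, and the other 70 had a median of 0.27. When the trend of r on transcript length was removed in each embryo, 92 of the 100 met the rule, and 47 of the 100 were among the 100 with the largest mean r. An estimated count that is not whole, to within 1e-06, shows that reads were divided between transcripts, and 60 of the 100 had such a count in at least 1 library, against 62.3% of all, and 48 had one in all 30 libraries, against 38.7%.

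**Figure D4:**
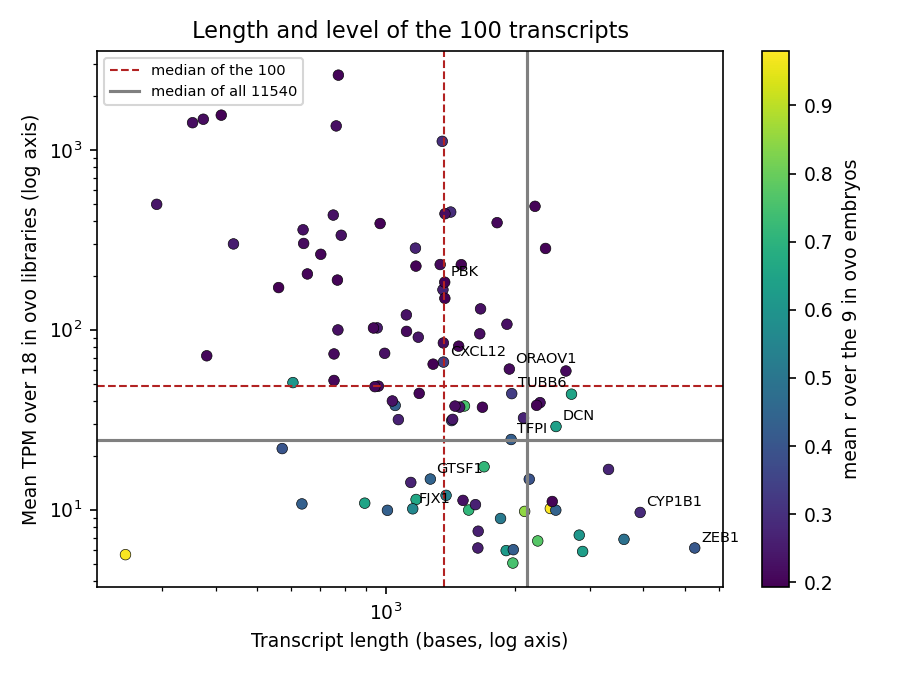
Length in bases and mean TPM over the 18 in ovo libraries of the 100 transcripts, both on log axes, coloured by mean r. Dashed lines mark the medians of the 100 (1367.5 bases, 48.4 TPM) and grey lines those of all 11540 transcripts (2140 bases, 24.5 TPM). The transcripts with the largest mean r lie at low levels.

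The cultured otocysts gave ratios on the same sides that the selection did not use, since the right otocyst was the treated one there too. With 6 h of LY411575 the mean r was above 0 for 36 of the 100 transcripts, against 53.0% of all, and with 24 h for 42, against 38.2%. In the LY411575 6 h embryos the median r of the 100 was -0.07, -0.05 and -0.04 in embryos 1, 3 and 5, against -0.02, 0.04 and 0.01 for all transcripts. In the LY411575 24 h embryos it was -0.05, -0.12 and 0.07 in embryos 32, 33 and 34, against -0.17, -0.03 and -0.10. After 6 h the transcript was higher on the right in 3 of 3 embryos for 11 of the 100 and lower in 3 of 3 for 28, against 18.8% and 15.9% of all. After 24 h the counts were 7 and 21, against 12.4% and 24.4%. The inhibitor and the side cannot be told apart in these sets. With TPM the median mean r of the 100 was -0.05 after 6 h, against 0.01 for all transcripts, and -0.06 after 24 h, against -0.11. With TMM-scaled CPM it was -0.06 after 6 h and changed sign to 0.04 after 24 h. The medians beside these were 0.00 and -0.02, over transcripts with a mean of at least 5 CPM in ovo. These backgrounds differ in their floor. Relative to them the medians of the 100 stood lower after 6 h and higher after 24 h under both scalings. Embryo 33 of the 24 h set stood lower under both. With TMM-scaled CPM it was at -0.05, against 0.03 over transcripts above the TPM floor. In embryos 32 and 34 the right library detected 19917 and 19055 transcripts, against 21282 and 20706 on the left. In embryo 33 both detected 21176. The Spearman correlation of r with length was -0.23, 0.12 and -0.32 in embryos 32, 33 and 34. The position after 24 h was not kept when the trend of r on transcript length was removed in each embryo. The median was then -0.013 after 24 h, against 0.001 for all transcripts, and -0.034 after 6 h, against -0.002.

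In the paired edgeR quasi-likelihood test with Benjamini-Hochberg adjustment over 21637 transcripts, 0 of the 100 passed an adjusted p of 0.05 after 6 h of LY411575, against a background of 0.0416% higher and 0.037% lower, or 0.078% and 0.0694% among transcripts above the TPM floor. At an unadjusted p under 0.05 there were 3 of the 100, against 2.66% of all transcripts tested and 3.32% of those above the floor, and DESeq2 and limma-voom also called 0. After 24 h edgeR again called 0, against a background of 1.55% higher and 1.85% lower, with 19 of the 100 at an unadjusted p under 0.05, of which 9 were higher and 10 lower with LY411575. That share was near the 17.6% of all transcripts tested and below the 26.6% of those above the TPM floor. DESeq2 called 11 of the 100 after 24 h, 5 higher and 6 lower, against 12.3% of all transcripts, and limma-voom called 2, against 3.69%. Among transcripts above the TPM floor the edgeR background after 24 h was 2.86% higher and 3.09% lower. Without embryo 33 edgeR called 7 of the 100, against 8.02% of all transcripts, without embryo 34 it called 3, against 1.53%, and without embryo 32 it called 0, against 0.477%.

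Of the 10 named transcripts, 8 had a positive log2 fold change after 6 h of LY411575, all but GTSF1 (-0.10) and PBK (-0.04). After 24 h 4 had one, and edgeR called 0 at either time. Their symbols come mostly from the study's lists of changed transcripts, in part from these same libraries. The 10 are thus no unselected sample for these directions. Over the whole selection the median log2 fold change was -0.06 after 6 h and 0.04 after 24 h. Over transcripts above the TPM floor it was 0.003 and -0.006. The log2 fold changes after 6 h and 24 h were 0.16 ± 0.24 and -0.70 ± 0.24 (SE) for TFPI. They were 0.19 ± 0.21 and -0.49 ± 0.21 (SE) for ZEB1, and 0.33 ± 0.29 and -0.69 ± 0.29 (SE) for CYP1B1. For the difference between the 24 h and the 6 h effects the edgeR adjusted p was 0.393, 0.429 and 0.396. FJX1, CXCL12 and ORAOV1 were positive at both times, and PBK was negative at both. DCN measured 40.5, 23.0 and 30.4 TPM with 6 h of LY411575, against 15.1, 15.0 and 18.1 TPM with DMSO, and the values did not overlap. The log2 fold change was 0.92 ± 0.49 (SE, n = 3 pairs, edgeR adjusted p = 1.0). This SE draws on the spread in all 30 libraries, and it was 0.21 in a fit of only the 6 libraries of the set. With 24 h DCN measured 6.98, 15.8 and 10.6 TPM, against 11.3, 21.5 and 30.5 TPM with DMSO, at a log2 fold change of -0.76 ± 0.49 (SE, n = 3 pairs, edgeR adjusted p = 0.49). The difference between the 24 h and the 6 h effects was -1.68 ± 0.70 (SE, edgeR adjusted p = 0.413). CXCL12 measured 172, 184 and 158 TPM with 6 h of LY411575, against 140, 128 and 132 TPM with DMSO, with no overlap, at a log2 fold change of 0.36 ± 0.12 (SE, n = 3 pairs, edgeR adjusted p = 1.0). With 24 h it measured 24.9, 30.7 and 40.1 TPM, against 26.3, 30.8 and 30.9 TPM, at 0.20 ± 0.12 (SE, n = 3 pairs, edgeR adjusted p = 0.432).

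The DMSO otocysts showed how the 100 transcripts stood with longer culture, in embryos without any electroporation. Of the 100, 20 rose and 4 fell in the 24 h otocysts relative to the 6 h otocysts (edgeR over the 15 left libraries, adjusted p under 0.05), against a background of 11.1% higher and 9.6% lower among 20710 transcripts. Among transcripts above the TPM floor the background was 15.5% higher and 13.1% lower. The median log2 fold change of the 100 was 0.36, against -0.03 over all transcripts tested and 0.02 over those above the floor. The 20 that rose did so by log2 fold changes between 0.48 and 2.84 with a median of 0.78, and 17 of them are unnamed. At an unadjusted p under 0.05 the 100 held 41 transcripts, against 42.7% of those above the floor, and 35 of the 41 were higher and 6 lower at 24 h. Leaving out each of the 6 embryos in turn gave between 17 and 26 called. All these otocysts were taken at E2.5, so their age rose with time in culture and cannot be told apart from it. The 2 groups are also different embryos, so differences between embryos cannot be told apart from time in culture either.

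Of the named transcripts, 4 changed with time in DMSO. ZEB1 measured 22.4, 27.3 and 40.9 TPM in the 24 h DMSO otocysts, against 5.60, 7.76 and 8.53 TPM in the 6 h ones, at a log2 fold change of 2.25 ± 0.25 (SE, edgeR adjusted p = 1.0e-04). GTSF1 measured 39.4, 44.5 and 129 TPM, against 11.8, 10.2 and 11.1 TPM, at 2.84 ± 0.59 (SE, edgeR adjusted p = 0.0048). TUBB6 measured 79.1, 56.0 and 22.7 TPM, against 18.8, 22.5 and 26.5 TPM, with overlapping values, at 1.44 ± 0.44 (SE, edgeR adjusted p = 0.0352), a call that was lost in 5 of the 6 fits without 1 embryo. CXCL12 went the other way, at 26.3, 30.8 and 30.9 TPM in the 24 h otocysts, against 140, 128 and 132 TPM in the 6 h otocysts, a log2 fold change of -2.00 ± 0.19 (SE, edgeR adjusted p = 4.7e-05). The unnamed ENSGALT00000090178.2, chosen after its values were seen as the unnamed transcript with the largest called change, measured 1809, 1659 and 2937 TPM in the 24 h otocysts, against 390, 444 and 404 TPM in the 6 h otocysts, at 2.55 ± 0.28 (SE, edgeR adjusted p = 1.2e-04). Its in ovo r was 0.29 ± 0.29 (SD, n = 9).

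**Figure D5:**
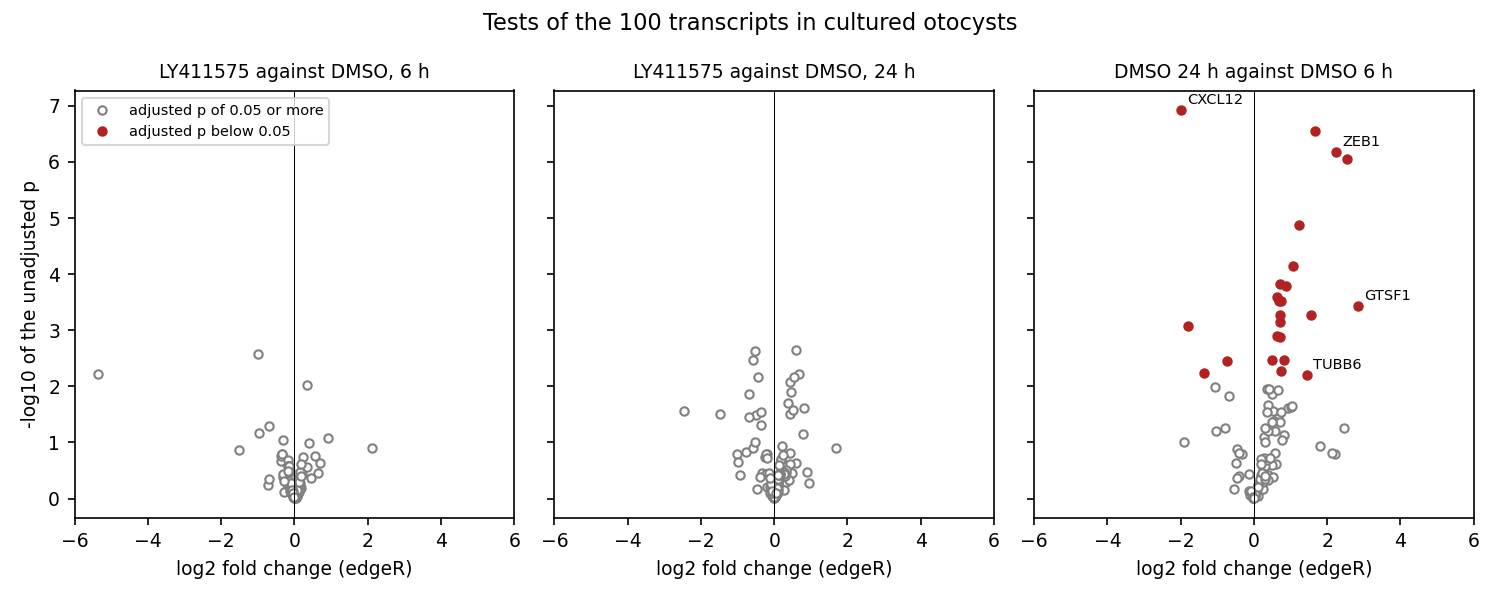
Log2 fold change and -log10 of the unadjusted p for the 100 transcripts in the 3 cultured comparisons (edgeR). Filled points passed an adjusted p of 0.05, which 0 transcripts did in both LY411575 comparisons and 24 did between DMSO otocysts of 24 h and 6 h, where the 4 called transcripts with a symbol are named.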

How the data were processed

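Total RNA of single otocysts was made into SMART-Seq v4 and Nextera XT libraries, which keep no strand, and the authors quantified paired reads with kallisto against the chicken transcriptome of build GRCg6a. The deposited tables give 1 row per Ensembl transcript, with estimated counts, TPM, which the authors left as kallisto scales them, and other columns for length and effective length in bases. Symbols came from the study's supplementary list by transcript identifier (812 identifiers with a symbol), and only names were taken from it. That list holds mostly transcripts that the study reported as changed, in part in these same libraries. No coordinates or sequences are given, since the RefSeq gene table at hand is of build GRCg7b, and the planned promoter motifs were not run.

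The transcripts, gene lists and tests were chosen with earlier results of these data known. Named are the selected transcripts with a symbol, the list genes beside them and 4 unnamed identifiers, of which ENSGALT00000089781.2 and ENSGALT00000090178.2 were chosen after their values were seen. The lists were Notch pathway, early response and stress, chaperones of the endoplasmic reticulum, glycolysis and hypoxia, sterol synthesis, ribosomal proteins, DNA replication and damage, innate and DNA sensing, otic epithelium, mesenchyme, neuroblasts and neurons, and surface ectoderm. The study's own test was made with sleuth. Here the estimated counts, once rounded, were tested with edgeR 4.0.16 (R 4.3.3) by its quasi-likelihood test, with TMM library sizes and filterByExpr at a minimum count of 10. For LY411575 the fit took all 30 libraries, with a term per embryo that pairs the otocysts of an embryo and a term per treatment, which left 10 residual degrees of freedom. The correlation of the deviations of both otocysts of an embryo from their group means was between 0.04 and 0.52 in the 15 pairs. For DMSO the fit took the 15 left libraries. The SE beside an edgeR log2 fold change is the size of that change divided by the square root of the F statistic of the test. It rests on a spread estimated over all libraries of the fit, and is not the scatter of the 3 pairs alone. Benjamini-Hochberg adjustment ran across every transcript tested, with a threshold of 0.05. DESeq2 1.42.0 and limma-voom (limma 3.58.1) were alternatives. The edgeR fits of the cultured comparisons were tried on simulated counts, with the same spread for every transcript and no differences between embryos. Those runs therefore do not show how the fits behave with the paired otocysts here. Depth per library limits only counting error, and with 3 embryos per set p-values rest on few ears.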

Additional observations from a re-analysis of the deposited data

Results flagged for a closer look

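DCN, which encodes decorin, had a mean r of 0.89 in the 3 embryos of the LY411575 6 h set and of -0.83 in the 3 embryos of the 24 h set, with r above 0 in every embryo of the first and below 0 in every embryo of the second. The edgeR test of the difference between the 24 h and the 6 h effects gave -1.68 ± 0.70 (log2, SE, adjusted p = 0.413), which missed the threshold. A pattern of opposite signs in all 3 embryos of both LY411575 sets was seen in 4 of the 100 transcripts, against 5.54% of all transcripts above the TPM floor. The 6 h and 24 h sets came from different embryos.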

How the results depend on the processing

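With a floor of 5 CPM in place of 5 TPM, the number of transcripts meeting the rule was 730 with TMM CPM and 956 with median-of-ratios CPM. With the TPM floor and the length trend removed it was 837, against 315 as reported. In these 3 runs 54, 52 and 47 of the 100 were among the largest 100. Without each embryo the number meeting the rule lay between 327 and 498, the higher values being 498 without embryo 21 and 493 without embryo 24. Between 52 and 75 of the 100 were then picked again. Pseudocounts of 0.1 and 5 TPM kept 97 and 94 of the 100. The median r after 6 h of LY411575 was -0.0732 with median-of-ratios CPM and between -0.0612 and -0.0274 without each embryo, and after 24 h it was 0.0448 with TMM and 0.0577 with median-of-ratios CPM, and between -0.0906 and -0.0155 without each embryo. The number called after 24 h of LY411575 was 11 with DESeq2, 2 with limma-voom and 3 at a minimum count of 50, and between 0 and 7 without each embryo. Without the replicate block, that is with otocysts unpaired, it was 0 after 6 h and 0 after 24 h, where 6 of the 100 had an unadjusted p under 0.05, against 13.5% of all transcripts. After 6 h it was 0 in every alternative run. Between DMSO otocysts the count lay between 17 and 26 without each embryo and was 32 with DESeq2, which shared all 24 called. Of 88 alternative values of tested fold changes of named transcripts, 81 kept direction and side of the threshold and 7 lost significance, all 7 for TUBB6 in DMSO. All 140 alternative values of the in ovo mean r, which has no test, kept their sign, and those over 1.5 times off beside single embryos were ZEB1 with a pseudocount of 5 TPM (0.27, against 0.41), ZEB1 and CYP1B1 with the length trend removed (0.65 and 0.47, against 0.41 and 0.29), ORAOV1 with median-of-ratios CPM (0.34, against 0.22) and PBK with TMM and median-of-ratios CPM (0.30 and 0.32, against 0.19). Low levels limit the transcripts at the top of the list, and the cause of these changes was not tested.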
